A study of Mus musculus with 12 samples.

Results

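The 5 genes described here are Hba-a1, Hba-a2, Hbb-bs, Hbb-bt and Alas2, taken by their symbols from a table of 33024 gene symbols, with their values in each mouse used as a measure of the blood left in the tissue. RNA was sequenced from the brain cortex of 12 C57BL/6 mice without any engineered allele named in the labels, 7 in the Control group and 5 in the EtOH group. EtOH mice were offered a bottle of 20% v/v ethanol beside water in a drinking-in-the-dark schedule of 35 sessions of 12 h from 30 days of age, and the Control mice, whose treatment is labelled vehicle, had water only. After 14 days without ethanol both groups went through behavioural tests, among them swimming and maze tests, and were then killed and perfused through the heart with cold saline, a step that removes blood from the vessels before the cortex is frozen. Each library is 1 mouse.

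Hemoglobin carries oxygen in red cells as a tetramer of alpha and beta chains, each holding a heme. In the adult mouse the alpha chain comes from Hba-a1 and Hba-a2, and in the C57BL/6 strain the beta chain comes from Hbb-bs and Hbb-bt. Alas2 is the red cell form of 5-aminolevulinate synthase, the rate-limiting enzyme of heme synthesis, while Alas1 does the same step in other cells. Mature mammalian red cells have no nucleus, and globin transcripts persist in young circulating red cells, so globin RNA in a tissue extract is widely read as a sign of blood. Low globin expression has also been described in some neurons and glia. In a bulk extract, fewer red cells and less RNA per red cell cannot be told apart.

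In the Gencode annotation of GRCm39, Hba-a1 (ENSMUSG00000069919.9) lies at chr11:32233186-32234504 and Hba-a2 (ENSMUSG00000069917.9) at chr11:32246168-32247320, both on the plus strand, with their starts 12982 bases apart. Hbb-bt (ENSMUSG00000073940.5) at chr7:103461727-103465047 and Hbb-bs (ENSMUSG00000052305.8) at chr7:103475730-103482989 lie on the minus strand. Each globin gene has 3 exons. Alas2 (ENSMUSG00000025270.15) has 11 exons on the plus strand at chrX:149330371-149353634.

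The 150 bases before each start are shown because all 5 genes are used in the red cell lineage and their RNA levels moved together among the mice. They are given 5′ to 3′ from RefSeq's start sites on GRCm38.p6, and all 5 genes were matched. Capitals mark the letters GATAA (read by GATA factors), CACCC (read by Krüppel-like factors such as KLF1), CCAAT and TATAA on either strand, and adjoining matches run together.
Hba-a1: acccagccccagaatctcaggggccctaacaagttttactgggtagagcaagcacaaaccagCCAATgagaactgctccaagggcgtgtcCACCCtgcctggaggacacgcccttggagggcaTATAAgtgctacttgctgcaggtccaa
Hba-a2: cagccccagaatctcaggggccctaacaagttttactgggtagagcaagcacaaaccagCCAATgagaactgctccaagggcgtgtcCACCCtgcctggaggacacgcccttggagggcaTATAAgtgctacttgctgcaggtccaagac
Hbb-bs: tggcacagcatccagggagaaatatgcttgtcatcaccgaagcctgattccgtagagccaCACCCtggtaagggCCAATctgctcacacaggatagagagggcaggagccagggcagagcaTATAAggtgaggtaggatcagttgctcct
Hbb-bt: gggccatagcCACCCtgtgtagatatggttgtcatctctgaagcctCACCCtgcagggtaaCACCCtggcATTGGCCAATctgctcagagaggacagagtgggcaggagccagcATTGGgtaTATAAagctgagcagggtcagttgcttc
Alas2: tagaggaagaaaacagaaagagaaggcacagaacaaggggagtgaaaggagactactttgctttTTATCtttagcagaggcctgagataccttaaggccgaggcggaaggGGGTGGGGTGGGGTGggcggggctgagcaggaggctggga
The windows are chr11:32283522-32283671 (Hba-a1) and chr11:32296342-32296491 (Hba-a2) on the plus strand. Those of Hbb-bs and Hbb-bt are chr7:103827929-103828078 and chr7:103813924-103814073 on the minus strand, and that of Alas2 is chrX:150547267-150547416 on the plus strand.

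The alpha promoters were the same over the 147 bases that their windows share, whereas the beta promoters matched at 106 of 149 aligned bases (71.1%). CACCC stood in all 5 windows, 3 times in Hbb-bt and 3 times, on the reverse strand, in Alas2, and it is found in 37.4% of 32851 mouse promoters over the same length. CCAAT stood in the 4 globin windows and in 24.5% of all promoters. TATAA stood in the same 4 windows, within 30 bases of the start, and in 14.2% of all promoters. GATAA was found in the Alas2 window, on the reverse strand, and in 13.3% of all promoters. These are matches of letters and not measured binding sites.

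Total counts ranged from 31768076 to 42183029 per mouse, with a median of 32166774 in Control and 32947641 in EtOH mice, and levels are given as CPM, the counts of a gene scaled to a common library size after TMM normalization. A count of 3 corresponds to 0.0711 to 0.0944 CPM. The tissue also differed between the groups in its neuron and border markers. All 15 striatal neuron genes were called lower in EtOH mice (among them Ppp1r1b, Pde10a, Penk, Scn4b, Rasd2, Rgs9, Drd1, Tac1, Drd2, Syndig1l, Adora2a, Gpr6, Rarb and Isl1), and 9 of 15 hippocampal neuron genes were called higher (Fibcd1, Prox1, C1ql2, Grp, Dsp, Lct, Il16, Spink8 and Iyd). The choroid plexus genes Ttr, Kl, Prlr, Sostdc1, Otx2, Kcnj13 and Kcne2 were called higher, 7 of 10 tested. Of 13 cortical neuron genes, Fezf2 was called higher and Lamp5 and Foxp2 lower. Summed, the striatal list stood at 1448 to 3122 CPM in Control and 355 to 409 CPM in EtOH mice, and the hippocampal list at 421 to 562 and 660 to 759 CPM. The cortical list stood at 5955 to 7474 and 6544 to 7699 CPM, so the labelled tissue carried its markers in every mouse. Median log2 fold changes of the 4 lists, in the order striatal, hippocampal, choroid plexus and cortical, were -2.88, 1.74, 2.23 and -0.04. The striatal and hippocampal sums thus lay apart between the groups, while the cortical sums overlapped. The choroid plexus sum was 239 to 290 CPM in Control mice, and EtOH 2 (239 CPM) and EtOH 5 (196 CPM) did not exceed that range. The part of these 4 lists in the results below was not tested.

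**Figure D1:**
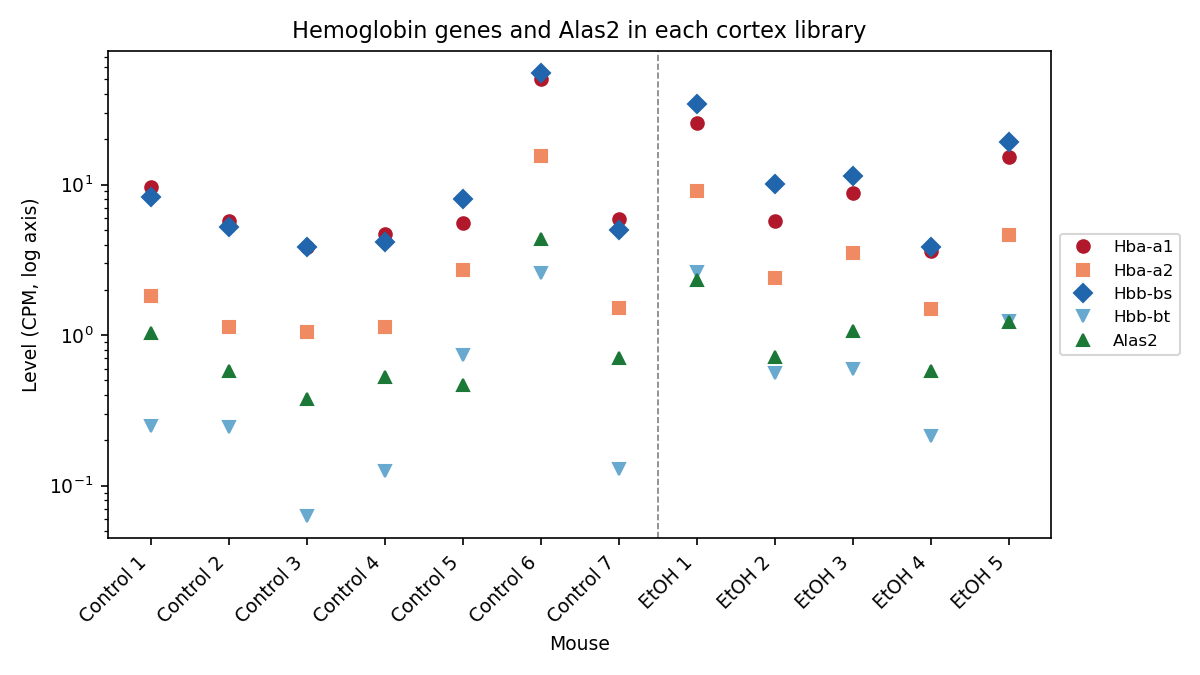
Level of each hemoglobin gene and of Alas2 in each of the 12 mice, in CPM on a log axis, with 1 point per gene and mouse and the groups divided by the dashed line. Control 6 is highest for Hba-a1, Hba-a2, Hbb-bs and Alas2, and EtOH 1 is highest for Hbb-bt at 2.62 CPM, just above Control 6 at 2.58 CPM.

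The alpha globin gene Hba-a1 ranged among Control mice from 3.85 CPM (122 counts) over a median of 5.70 CPM to 50.2 CPM (1575 counts) in Control 6. In EtOH mice 1 to 5 it stood at 25.6, 5.73, 8.74, 3.61 and 15.2 CPM. EtOH 1 and EtOH 5 were above every Control mouse but Control 6, and EtOH 4 was the lowest of the 12. Its copy Hba-a2 ranged among Control mice from 1.04 CPM over a median of 1.51 to 15.4 CPM in Control 6. In EtOH mice 1 to 5 it stood at 9.09, 2.40, 3.49, 1.49 and 4.62 CPM. The groups overlapped, with 3 EtOH mice above all the other 6 Control mice.

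The beta globin gene Hbb-bs ranged among Control mice from 3.85 CPM (122 counts) over a median of 5.27 to 55.2 CPM (1731 counts) in Control 6. In EtOH mice 1 to 5 it stood at 34.4, 10.02, 11.4, 3.85 and 19.2 CPM. EtOH 4 was at the level of the lowest Control mouse, and the other 4 EtOH mice were above every Control mouse but Control 6. Hbb-bt, the minor beta gene, ranged among Control mice from 0.0631 CPM (2 counts) over a median of 0.245 to 2.58 CPM (81 counts). In EtOH mice 1 to 5 it stood at 2.62, 0.560, 0.596, 0.212 and 1.25 CPM. Its lowest value is below the level of 3 counts, so its span of 41.5-fold rests on few reads, whereas the other 4 genes spanned 11.5-fold to 14.8-fold between the lowest and the highest mouse.

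Alas2 ranged among Control mice from 0.379 CPM (12 counts) over a median of 0.582 to 4.34 CPM (136 counts) in Control 6. In EtOH mice 1 to 5 it stood at 2.32, 0.716, 1.07, 0.577 and 1.22 CPM. Again the groups overlapped and 4 of 5 EtOH mice were above the Control median, as they were for each of the 4 globin genes.

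Per kilobase of transcript, the median level over the 12 mice was highest for Hbb-bs at 12.2 CPM per kb, followed by Hba-a1 at 7.88, Hba-a2 at 3.26, Hbb-bt at 0.576 and Alas2 at 0.349 CPM per kb. Mouse by mouse, Hbb-bs exceeded Hba-a1 in 9 of 12 and Hbb-bt exceeded Alas2 in 8 of 12, and Hba-a1 exceeded Hba-a2, and Hba-a2 exceeded Hbb-bt, in 12 of 12. Summed, the 4 globin genes held from 0.00087% of counts (Control 3) to 0.0122% (Control 6). In Control mice the sum had a median of 12.5 CPM and a range of 8.81 to 123 CPM. In EtOH mice the median was 24.2 CPM and the range 9.16 to 71.8 CPM.

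Control 6 stood apart from the rest of its group, and EtOH 1 was the highest of its own. Control 6 exceeded the median of the other Control mice 8.95-fold in Hba-a1, 11.7-fold in Hba-a2, 10.8-fold in Hbb-bs, 13.8-fold in Hbb-bt and 7.79-fold in Alas2. Ranked over 16059 expressed genes by this fold, with 0.1 CPM added to both sides, the 5 genes held places 1, 2, 4, 5 and 6, counting Hbb-bs and the duplicate row Hbb-b1 as a tie. EtOH 1 exceeded the median of the other EtOH mice by between 2.59-fold (Alas2) and 4.53-fold (Hbb-bt), at places between 2 and 23. By Dixon's test Control 6 lay beyond the 95% critical value in 4 of the 5 genes and EtOH 1 in 0 of 5, with EtOH 5 the next below it. The SD of log2 CPM within groups was 0.99 for Alas2, 1.20 for Hba-a1, 1.21 for Hba-a2, 1.26 for Hbb-bs and 1.42 for Hbb-bt, against a median of 0.15 over all expressed genes.

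Over the 12 mice, none of the 5 genes was called different between the groups, by edgeR's quasi-likelihood test. A gene was called where its Benjamini-Hochberg p, adjusted over all 16059 genes tested, was under 0.05 and its log2 fold change passed 0.5 in either direction, and 8.29% of the genes tested were called (4.2% higher and 4.09% lower in EtOH mice). All 5 genes passed the filter on low counts. At an unadjusted p under 0.05 the number was 0 of 5 too, and DESeq2 and limma voom also called 0 of 5.

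Mean Hba-a1 was 12.2 ± 16.9 CPM in Control (SD, n = 7) and 11.8 ± 8.89 CPM in EtOH mice (SD, n = 5), with a log2 fold change of -0.04 (SE 0.60, edgeR adjusted p = 0.974) and a 95% interval from -1.31 to 1.23. Hba-a2 was 3.54 ± 5.28 and 4.22 ± 2.97 CPM, a log2 fold change of 0.27 (SE 0.62, edgeR adjusted p = 0.786). The interval of Hba-a2 ran from -1.03 to 1.58. In each alpha gene the SD of the Control group was larger than its mean.

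Hbb-bs was 12.8 ± 18.8 CPM in Control (n = 7) and 15.8 ± 11.8 CPM in EtOH mice (n = 5), a log2 fold change of 0.31 (SE 0.62, edgeR adjusted p = 0.752) with an interval from -0.9999 to 1.63. Hbb-bt was 0.590 ± 0.907 and 1.05 ± 0.955 CPM, a log2 fold change of 0.85 (SE 0.71, edgeR adjusted p = 0.408) with an interval from -0.64 to 2.35. Alas2 was 1.15 ± 1.42 and 1.18 ± 0.687 CPM, a log2 fold change of 0.07 (SE 0.54, edgeR adjusted p = 0.939) with an interval from -1.07 to 1.22. Each interval holds both 0 and differences beyond 1 on the log2 scale. An exact two-sided permutation test of mean log2 CPM, which can give no p below 0.00126, gave p = 0.713 for Hba-a1, 0.325 for Hba-a2, 0.379 for Hbb-bs, 0.183 for Hbb-bt and 0.518 for Alas2.

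Control 6 moved these values most. Without it, the Control mean (SD, n = 6) was 5.88 ± 1.98 CPM for Hba-a1, 1.56 ± 0.638 for Hba-a2, 5.75 ± 1.91 for Hbb-bs, 0.258 ± 0.244 for Hbb-bt and 0.616 ± 0.232 for Alas2. Then 3 of 5 genes were called higher in EtOH mice, where 4.35% of all genes tested were called higher. These were Hba-a2 (log2 fold change 1.43, SE 0.38, edgeR adjusted p = 0.0115), Hbb-bs (1.46, SE 0.38, adjusted p = 0.012) and Hbb-bt (1.97, SE 0.59, adjusted p = 0.0244). Hba-a1 (1.01, adjusted p = 0.0592) and Alas2 (0.96, adjusted p = 0.0561) were not called.

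EtOH 1 moved the values the other way. Without EtOH 1 alone, the log2 fold changes were -0.54 for Hba-a1, -0.22 for Hba-a2, -0.19 for Hbb-bs, 0.16 for Hbb-bt and -0.34 for Alas2, and 0 of 5 were called. With both Control 6 and EtOH 1 left out, a choice made after seeing the data, 1 of 5 was called, where 4.1% of all genes were called higher. This gene was Hba-a2 (log2 fold change 0.93, edgeR adjusted p = 0.0484). The value of Hbb-bs was close to it (0.95, adjusted p = 0.0501), and Hbb-bt (1.27, adjusted p = 0.122), Hba-a1 (0.50, adjusted p = 0.279) and Alas2 (0.54, adjusted p = 0.243) were further from the threshold.

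**Figure D2:**
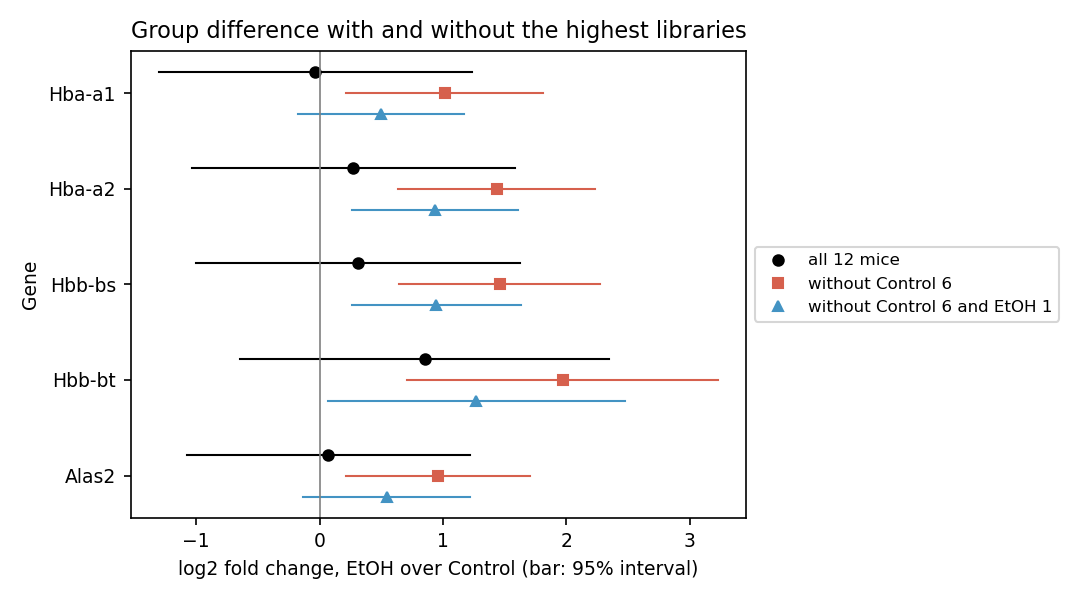
Log2 fold change of EtOH over Control mice for each gene, with 95% intervals, over all 12 mice (circles), without Control 6 (squares) and without Control 6 and EtOH 1 (triangles). Over all 12 mice every interval holds 0, and without Control 6 the 5 values lie between 0.96 and 1.97.

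The 5 genes rose and fell together from mouse to mouse. Over the 12 mice, Spearman's rho of log2 CPM was between 0.769 and 0.958 for the 10 pairs of genes, and Pearson's r was between 0.828 and 0.980. Adjusted over the 10 pairs, two-sided permutation p was between 0.0001 and 0.00506 for rho and between 2.5e-05 and 0.00067 for r. The closest pair by rank was Hba-a2 with Hbb-bt, genes on different chromosomes, and the loosest was Hbb-bt with Alas2, the genes with the fewest counts. The pairs within the alpha and within the beta genes share sequence, and hence possibly reads, but the pairs between them do not.

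Most pairs kept the relation without the high mice, with the 2 groups pooled. Without the 2 mice farthest from the median, which were Control 6 and EtOH 1 for every pair, rho was 0.612 to 0.939 and 8 of 10 pairs had an adjusted permutation p under 0.05, while r was 0.590 to 0.936 with 9 of 10. Within the 7 Control mice, Control 6 among them, rho was 0.607 to 0.964, and 5 of 10 pairs had an adjusted exact permutation p under 0.05. The high mice and the difference between the groups were not removed together. No correlation was computed within the 5 EtOH mice. Each of the 5 genes put them in the same order, from EtOH 1 through EtOH 5, EtOH 3 and EtOH 2 down to EtOH 4.

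**Figure D3:**
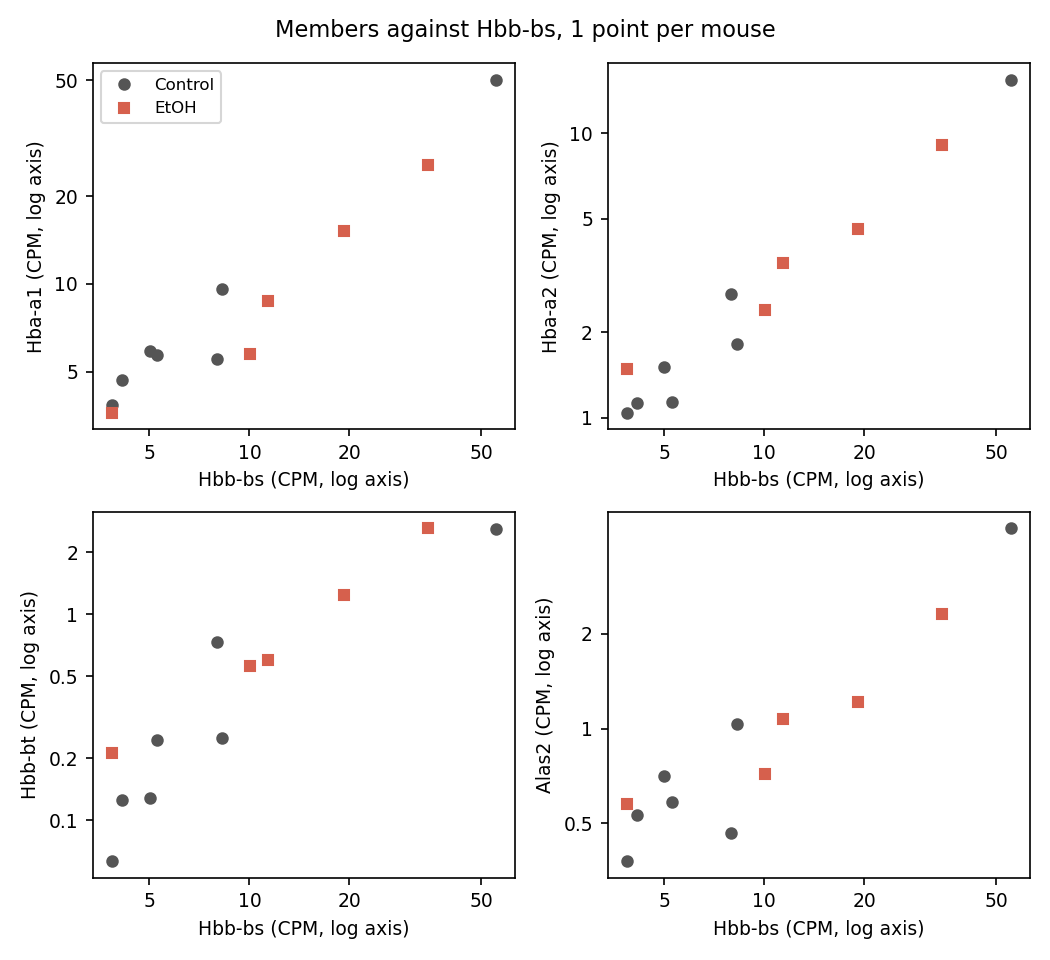
Levels of Hba-a1, Hba-a2, Hbb-bt and Alas2 against Hbb-bs, both axes in CPM on a log scale, with 1 point per mouse (circles for Control, squares for EtOH). The points climb together in each panel, with Control 6 and EtOH 1 at the upper end.

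The proportions between the genes varied less than their levels. The summed alpha to beta ratio of CPM was 1.25 ± 0.166 in Control (SD, n = 7) and 0.990 ± 0.176 in EtOH mice (SD, n = 5), with ranges of 0.947 to 1.44 and 0.768 to 1.25. Control 6 had a ratio of 1.14, and EtOH 1 had 0.937. Alas2 came to 4.48 ± 1.04% of the summed globin CPM in Control and 4.16 ± 1.31% in EtOH mice, 3.51% in Control 6 and 3.23% in EtOH 1. Over the 12 mice this share spanned 2.29-fold, against 14.01-fold for summed globin.

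Within the alpha pair, Hba-a2 held 21.4 ± 5.72% of counts in Control (range 15.9 to 32.9%) and 27.4 ± 2.59% in EtOH mice (range 23.4 to 29.5%). Control 5 was the highest of the 12 mice, with an exact 95% binomial interval of 27.9 to 38.2%. Within the beta pair, Hbb-bt held 3.91 ± 2.24% in Control (range 1.61 to 8.43%) and 5.73 ± 0.855% in EtOH mice (range 4.99 to 7.07%). Control 5 was again the highest, with an interval of 5.76 to 11.8%, and 5 of 5 EtOH mice were above the other 6 Control mice in the beta pair. These shares were given no test, and their intervals cover counting error only.

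**Figure D4:**
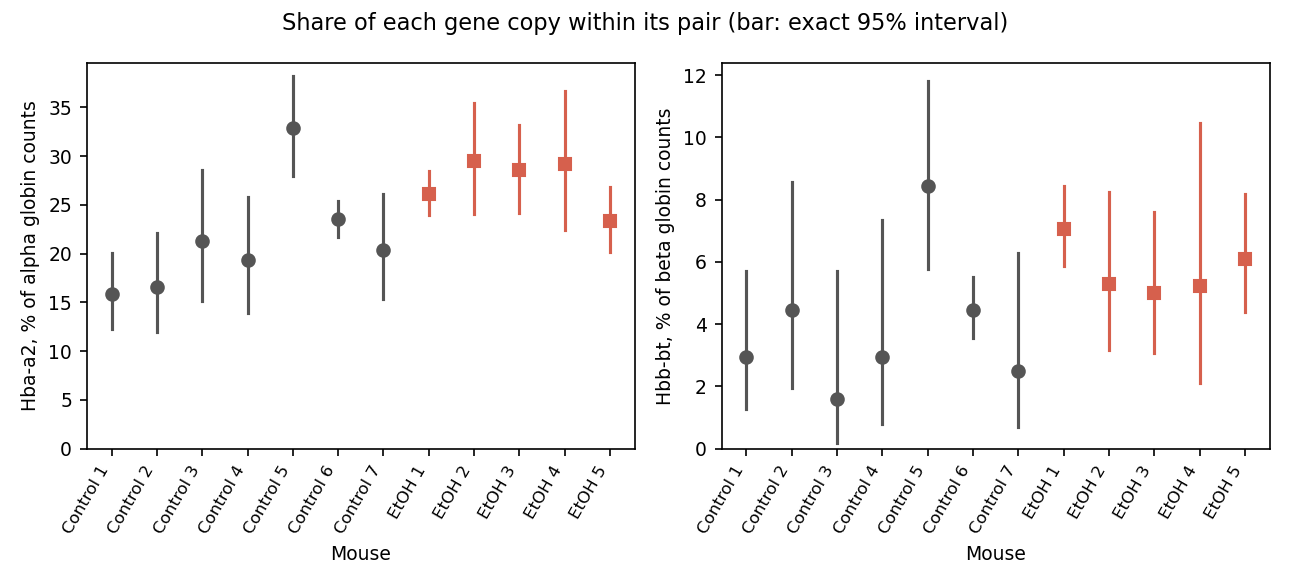
Share of Hba-a2 in the counts of Hba-a1 and Hba-a2 (left) and of Hbb-bt in the counts of Hbb-bs and Hbb-bt (right), in percent, for each mouse, with exact 95% binomial intervals (circles for Control, squares for EtOH). Control 5 is highest in both panels, at 32.9% and 8.43%.

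The split between copies is uncertain, because the coding parts differ at 1 of 426 bases between the alpha genes and at 1 of 441 bases between the beta genes. Of all stretches of 100 bases in the annotated transcripts, 73.6% of Hba-a1 and 81.8% of Hba-a2 also occur in the other alpha gene. For Hbb-bs, 64.6% occur in Hbb-bt or in the opposite-strand gene Gm74438, with which Hbb-bs shares 131 exon bases, and for Hbb-bt 54.7% occur in Hbb-bs. Alas2 shares 311 exon bases with Apex2 on the other strand, and without the strand setting of the counting its reads cannot be told apart there. Apex2 is a DNA repair nuclease. The table also holds a row for Hbb-b1, an older beta globin symbol, with counts identical to Hbb-bs in all 12 mice, which was not counted as a further gene. With the copies summed, alpha globin had a log2 fold change of 0.04 (SE 0.60, edgeR adjusted p = 0.973) and beta globin of 0.34 (SE 0.63, adjusted p = 0.730). Without Control 6 both sums were called higher in EtOH mice (alpha 1.11, edgeR adjusted p = 0.0348, and beta 1.49, adjusted p = 0.0118), and without both Control 6 and EtOH 1 the beta sum was (0.97, adjusted p = 0.0496) and the alpha sum was not (0.61, adjusted p = 0.159).

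The other red cell genes, in sum, ranged more narrowly. Of 36 red cell genes other than the 5, 35 were in the table and 22 were tested. Tfr2, a transferrin receptor of erythroid and liver cells, was the 1 gene called higher (7.17 ± 1.35 to 12.2 ± 1.05 CPM, log2 fold change 0.77, SE 0.12, edgeR adjusted p = 0.000135), 0 were called lower, and the median log2 fold change was -0.04 against 0.00 over all genes tested. Control 6 stood at 7.46 CPM of Tfr2, beside a median of 7.04 in the other Control mice. EtOH 1, the EtOH mouse highest in globin, was the lowest of its group at 10.6 CPM of Tfr2. Among the most abundant genes of the list were Tmcc2, Sptb (beta-spectrin) and Car2 (carbonic anhydrase), at 245, 198 and 156 CPM in Control mice, genes that the brain itself expresses. The summed level of the list was 1525 to 1578 CPM in Control and 1475 to 1531 CPM in EtOH mice.

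The 13 genes of this list that fell under the filter on low counts, and so were near 0 by the choice, included Slc4a1 (band 3), Klf1, Rhd, Car1, Nfe2, Trim10, Trim58, Epb42, Kel, Gata1 and Rhag. Summed over these 13, a mouse had 16 to 59 counts, 24 in Control 6 and 46 in EtOH 1, with the highest in EtOH 2. Slc4a1 had 70 counts over all 12 mice and stood at 0.319 CPM in Control 6, where the other Control mice had a median of 0.0942 and at most 0.25 CPM. In EtOH 1 it stood at 0.232 CPM, above the median of the other EtOH mice at 0.0602 CPM and below the highest EtOH mouse at 0.747 CPM. Gata1 had 4 and Rhag 3 counts in all. Spearman's rho of the summed level with Hbb-bs was 0.52 for these 13 genes and -0.01 for the whole list, and neither was tested. At this depth these 13 genes cannot be followed from mouse to mouse. Other genes of the red cell membrane (Ank1, Epb41) and the erythroid factor Tal1 passed the filter, at 63.8, 69.4 and 2.10 CPM on average over the 12 mice, named here after their values were seen.

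Among the other globins, the embryonic genes Hba-x, Hbb-bh1 and Hbb-bh2 had 0 counts in every mouse, and Hbb-y had 8 counts in all. Of 5 tested without Hbb-b1, Ngb, the neuroglobin of neurons, was called higher (2.16 ± 0.420 to 5.70 ± 1.61 CPM, log2 fold change 1.40, SE 0.18, edgeR adjusted p = 3.21e-05). Control 6 stood at 2.62 CPM of Ngb, within the range of the other Control mice. Cygb (cytoglobin) was at 53.5 and 51.3 CPM (adjusted p = 0.469), Adgb at 0.764 and 0.678 CPM, and Hbq1a at 0.248 and 0.348 CPM. The median log2 fold change of the list was 0.51.

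The 14 heme synthesis genes include Fech and Slc25a38, which are also in the list of other red cell genes. In either direction 0 of the 14 were called, and their median log2 fold change was -0.05. Without a minimum fold, 23.7% of all genes tested had an adjusted p under 0.05, and so had 3 of these 14, 6 of 14 genes of heme and hemoglobin clearance and 8 of 22 other red cell genes. Among the 3 was Iscu, a scaffold of iron-sulfur clusters (57.9 and 50.3 CPM, adjusted p = 0.0132). Alas1, the counterpart of Alas2 outside red cells, was at 63.1 ± 2.14 CPM in Control and 61.8 ± 1.45 CPM in EtOH mice (adjusted p = 0.667), and at 63.8 CPM in Control 6. Fech (ferrochelatase) was at 63.2 and 65.3 CPM, and Slc25a39, a mitochondrial carrier, at 68.4 and 61.1 CPM.

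Of 14 genes tested for the clearance of heme and hemoglobin, 1 was called lower and 0 higher, with a median log2 fold change of -0.18. It was Cd163, the macrophage receptor for haptoglobin-bound hemoglobin, at 3.02 ± 0.593 CPM in Control and 1.28 ± 0.441 CPM in EtOH mice (log2 fold change -1.22, SE 0.22, edgeR adjusted p = 0.000633). Control 6 stood at 3.19 CPM of Cd163, beside a median of 3.16 in the other Control mice. The most abundant were Fth1 (ferritin heavy chain, 1539 and 1223 CPM, adjusted p = 0.00155), Lrp1 (a receptor of heme-bound hemopexin, 522 and 693 CPM, adjusted p = 0.00509), Slc48a1 (a heme transporter, 179 and 154 CPM, adjusted p = 0.0207) and Ftl1 (ferritin light chain, 46.0 and 41.0 CPM, adjusted p = 0.112), each with a log2 fold change under 0.5 in size.

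Markers of other blood cells were tested in the same fit. Of 6 platelet genes tested, 0 were called, with a median log2 fold change of 0.01, with Itga2b, Gp5 and Gp1ba at 2.85, 0.952 and 0.674 CPM in Control mice. The summed level of the list was 9.02 CPM in EtOH 1 and at most 6.22 CPM in the other EtOH mice, and 6.66 CPM in Control 6 within a Control range of 6.19 to 7.38 CPM. Of 5 neutrophil genes tested, led by Mmp9, Ngp, S100a9 and Lcn2 at 1.34 CPM or less in Control mice, 0 were called, with a median log2 fold change of -1.10. Control 6 had the highest neutrophil sum of its group at 7.05 CPM, against at most 5.08 in the others, while the highest of all 12 mice was EtOH 2 at 8.25 CPM, a mouse with 18.7 CPM of summed globin, and EtOH 1 had 2.20 CPM.

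Of 4 lymphocyte genes tested, Ighm (47.8 ± 8.17 to 25.2 ± 11.3 CPM) and Trbc2 (12.3 ± 2.38 to 5.79 ± 2.34 CPM) were called lower (log2 fold change -0.93 and -1.09, edgeR adjusted p = 0.00236 and 0.000781). These are an immunoglobulin and a T cell receptor constant chain. Cd79a and Igkc were under 0.4 CPM in both groups, and the median was -0.43. The list's sum was 51.2 to 76.0 CPM in Control mice, with Control 6 near the low end at 51.8 CPM, and 23.2 to 55.6 CPM in EtOH mice, with EtOH 1 near the low end at 23.6 CPM. Of the monocyte genes, 1 was tested, Vcan, at 21.7 and 20.1 CPM (log2 fold change -0.11, adjusted p = 0.528), with Ms4a6c, Ccr2 and Chil3 under the filter. Vcan is also a gene of oligodendrocyte precursor cells, so its level in cortex is no measure of monocytes. The part of other blood cells in the globin levels was not tested.

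Genes of the vessel wall and of the brain's borders were counted in the same way. Of 14 endothelial genes tested, Ly6c1 and Emcn were called lower (log2 fold change -0.64 and -0.52), the median was -0.13, and their sum was 399 CPM in Control 6, the highest of the group, and 331 CPM in EtOH 1, the lowest of its group. Of 11 mural cell genes tested 0 were called (median 0.00), with a sum of 261 to 297 CPM in Control and 268 to 293 CPM in EtOH mice. Of 12 meningeal and perivascular genes Dcn was called higher (log2 fold change 1.87) and Cd163 lower (median 0.04), and the sum ran from 36.9 CPM in EtOH 2 to 117 CPM in EtOH 3, with 64.7 CPM in Control 6 and 89.1 CPM in EtOH 1. The choroid plexus sum was 239 to 290 CPM in Control mice, 257 CPM in Control 6. In EtOH mice 1 to 5 it was 364, 239, 1575, 559 and 196 CPM, so the mouse highest in these genes, EtOH 3, was not the one highest in globin.

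**Figure D5:**
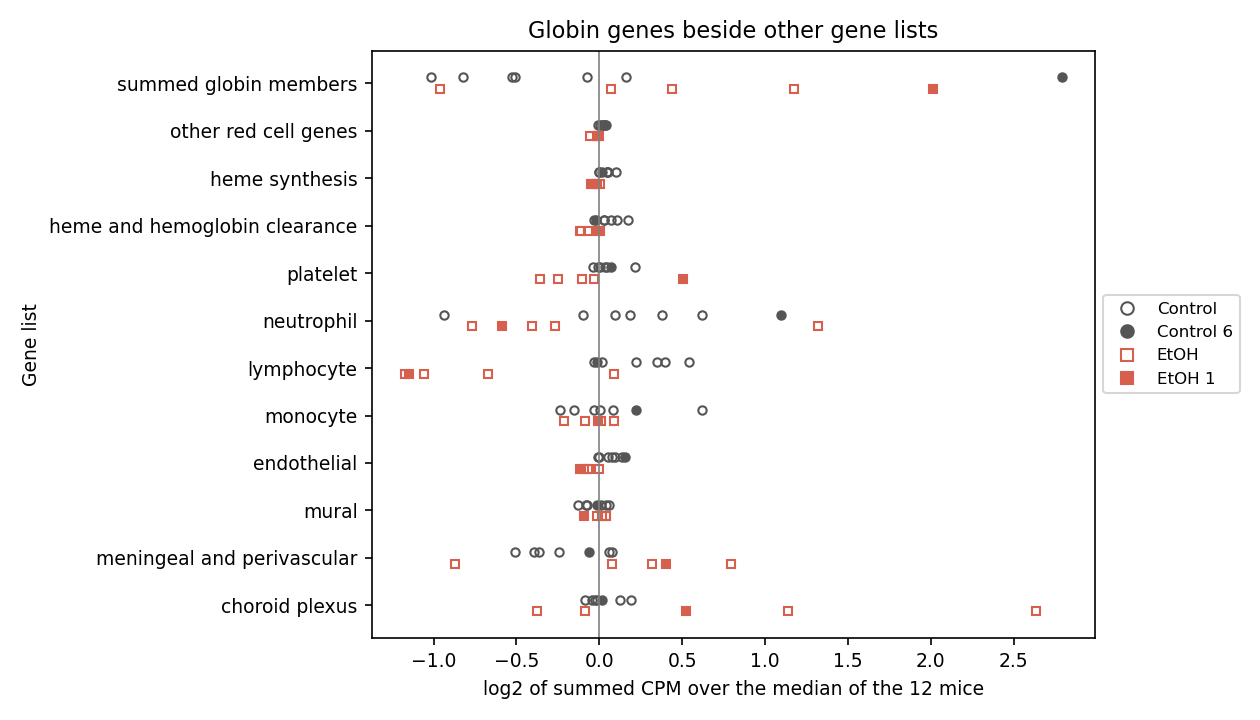
Log2 of the summed CPM of each gene list over its median in the 12 mice (x axis), 1 point per mouse (circles for Control, squares for EtOH), with Control 6 and EtOH 1 filled. Control 6 and EtOH 1 stand at the right end for the summed globin genes, and the lists of other red cell, heme synthesis and mural genes stay close to 0.

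Within the 5 genes, Spearman's rho with Hbb-bs over the 12 mice was 0.944 for Hba-a2, 0.930 for Hbb-bt, 0.916 for Hba-a1 and 0.909 for Alas2. Among the 16054 tested genes outside the 5, ranked by the same rho, the duplicate row Hbb-b1 came first. Then came Bche (butyrylcholinesterase) at 0.930, Smchd1 at 0.923, A830029E22Rik and Trim23 at 0.895, Pign at 0.881, Ears2, Hdgfl3 and Ctdspl2 at 0.867 and Pcdh11x at 0.860. Leaving Hbb-b1 aside, their highest mouse exceeded their lowest by between 1.15-fold and 3.37-fold, where Hbb-bs spanned 14.3-fold. This likeness is thus one of rank and not of size. These are the top ranks of 16054 genes over 12 mice, and how high rho would reach by chance was not tested. When Control 6 was left out, Bche, Smchd1, Trim23 and Ctdspl2 remained among the 10, beside the duplicate row Hbb-b1, which stays by construction.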

How the data were processed

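The authors had RNA sequenced by BGI, checked reads with FastQC 0.11.9, aligned them to GRCm39 with STAR and Gencode Release 28, and counted them with featureCounts. Strand and multi-mapping settings are not given in the sources used here. The authors deposited 1 table of expected counts per gene symbol, without normalization. In it 61 symbols, none of the 5 genes, hold values that are not whole, and all were rounded. Columns were matched to mice by name.

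Genes were kept with filterByExpr (16059), scaled by TMM (edgeR 4.0.16, limma 3.58.1, R 4.3.3) and tested with edgeR's quasi-likelihood test. DESeq2 1.42.0 and limma voom, other normalizations and filters, and fits leaving out each mouse were alternatives. The thresholds for a call follow the study. Log2 CPM used a prior count of 2, correlations 100000 permutations. The procedure was tested on simulated data. Positions are from Gencode release 39 on GRCm39, and promoters from RefSeq on GRCm38.p6.

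The 5 genes and all lists (other red cell, globin, heme synthesis and clearance, platelet, neutrophil, lymphocyte, monocyte, endothelial, mural, meningeal, choroid plexus, cortical, striatal and hippocampal) were chosen with earlier results of these data known. Named genes are the 5, all called genes of the lists, the 4 most abundant of each red cell, globin, heme and blood cell list, and the 10 most like Hbb-bs by rank. A few of them are not reported here. Genes named outside this rule, such as those near 0, were chosen after their values were seen. Mice are separate animals, and p-values measure the spread between them.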

Additional observations from a re-analysis of the deposited data

Results flagged for a closer look

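In the Control group of 7, Control 6 lay farther above the next mouse than Dixon's 95% critical value allows for 4 of the 5 genes. Its log2 CPM was 5.65 for Hba-a1 (next mouse 3.27), 3.95 for Hba-a2 (next 1.47), 5.79 for Hbb-bs (next 3.06) and 2.14 for Alas2 (next 0.13). In all, 18 sets of values were tested and 4 passed, where chance gives about 1 in 20, and the 4 are 1 mouse and genes that vary together, so they are not separate observations. Why this mouse was high was not tested.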

How the results depend on the processing

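The direction and size of the group difference depended on which mice were fitted. Leaving out each mouse in turn, the log2 fold change ranged from -0.54 to 1.01 for Hba-a1, -0.22 to 1.43 for Hba-a2, -0.19 to 1.46 for Hbb-bs, 0.16 to 1.97 for Hbb-bt, -0.34 to 0.96 for Alas2, -0.46 to 1.11 for summed alpha and -0.17 to 1.49 for summed beta globin, with 0 to 3 of the 5 genes called. The lowest values came without EtOH 1 and the highest, with all 3 calls, without Control 6. Without both, chosen after seeing the data, the values were 0.50 for Hba-a1, 0.93 for Hba-a2 and 0.97 for summed beta globin, and 1 of 5 was called. Methods that work on log values gave higher differences for all 5 genes, none called: limma voom gave 0.35, 0.82, 0.75, 1.41 and 0.50 for Hba-a1, Hba-a2, Hbb-bs, Hbb-bt and Alas2, and the difference of mean log2 CPM was 0.27, 0.75, 0.69, 1.19 and 0.39, so that the sign of Hba-a1 changed, and the cause was not tested. Hbb-bt had no value where at least 10 counts were required in every mouse.

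Replicate numbers did not pair the mice: the correlations of deviations of same-numbered mice were 0.02, -0.02, -0.11, -0.02 and 0.00, and no mouse was closest to its own number. A fit with the replicate number as a block can use 10 mice and so leaves out Control 6 and Control 7. With the block the log2 fold changes were 0.79 for Hba-a1, 1.29 for Hba-a2, 1.20 for Hbb-bs, 1.79 for Hbb-bt, 0.92 for Alas2, 0.90 for summed alpha and 1.22 for summed beta globin, and 5 of 5 genes were called, where 4.33% of all genes were called higher. In the same 10 mice without the block they were 1.01, 1.42, 1.42 and 1.84 for the 4 globin genes and 1.45 for summed beta globin, and 3 of 5 were called, where 4.45% of all genes were called higher.

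Over all genes, 1331 were called, 3810 without a minimum fold and 524 with a minimum of 1 on the log2 scale, and 1162 to 1501 without each mouse in turn. Of the listed genes 42 were called, 66 without a minimum fold, and 40 to 50 without each mouse. With the Hbb-bs level as a covariate 1197 genes were called, 1140 of them shared. Within Control mice 5 of 10 correlations passed, and 5 of the 10 genes most like Hbb-bs, the duplicate row Hbb-b1 included, were kept without the highest mouse. With DESeq2, robust edgeR, other normalization factors and other filters, 0 of the 5 genes were called. Hbb-bt and Alas2 rest on as few as 2 and 12 counts in a mouse, which limits their precision.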
